A study of Phyllostachys violascens with 6 samples.

Results

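The unigenes described here were the 150 with the largest shared difference between same-numbered libraries of both tissues of a bamboo internode: each was lowest in replicate 1, intermediate in replicate 2 and highest in replicate 3 of the culm and of the sulcus alike, at similar levels in both tissues. A unigene is a group of assembled transcripts that stands for a gene where no genome is used. Of 63776 unigenes in the deposited table, 13883 had a mean of 10 CPM (counts of a unigene per 1000000 counts of its library) or more over the 6 libraries. Of these, 1297 (9.34%) kept that order in both tissues and stayed within 2-fold between culm and sulcus in each pair of same-numbered libraries. The 2-fold limit was applied with 0.5 CPM added to every value. The members were chosen by their score, which was the smaller of the culm and the sulcus log2 ratio of replicate 3 to replicate 1, with 0.5 CPM added to every value. Unigenes annotated as F5H and HCT met these conditions and were left out before ranking, so the 150 members were the highest of 1295 ranked unigenes.

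The libraries came from *Phyllostachys violascens* cv. Viridisulcata, labelled wild type. The yellow culm and the green sulcus (the groove that runs along one side of an internode) of the longest internodes gave 3 libraries each, numbered 1 to 3. The plants were garden grown and had no treatment, and the study describes 3 biological replicates of uniform size. All samples were taken on 1 day. A legend to the qRT-PCR says that its numbers stand for different bamboos, but the sources used here do not say so of the library numbers. The replicate numbers are names and carry no order in time or dose.

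A growing bamboo internode elongates first and then thickens and lignifies its cell walls. Lignin and flavonoids both start from phenylpropanoids: F5H and HCT act on the branch to lignin monomers, while glucosyltransferases attach sugar to finished flavonoids and change their solubility and color. Of the 150 members, only 1 has an annotation in the sources used here. It is Cluster-4806.39584, named PvUF7GT, which the study places at the transfer of glucose to the 7-hydroxyl group of the flavone apigenin and which its table matches to an anthocyanidin 3-O-glucosyltransferase. The files do not pair the other identifiers with names, so the remaining members are given by their rank in the score.

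The study measured PvUF7GT by qRT-PCR too, and the primer pair is shown because it is the only sequence of a member in the sources used here. Both primers are written 5′ to 3′, with no base marked by capitals.
PvUF7GT forward: gtatcggtggcgtcgatagt
PvUF7GT reverse: acacttgctgatttgcacca

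Library totals ran from 16405396 to 22505338 counts, and 52679 to 56281 unigenes had a count above 0. The labelled tissues were compared in 12 unigenes of photosynthesis and its antennae, taken from the study's own pathway enrichment on these samples. Of the 12, 11 were lower in culm than in sulcus in all 3 pairs. Since the study picked them on these samples, this is no independent check of the labels. The summed level of the 12 was 1043, 1382 and 2398 CPM in culm replicates 1, 2 and 3. It was 5919, 4985 and 2963 CPM in sulcus replicates 1, 2 and 3. None of the 12 was a member, but only 8 of them reached the mean of 10 CPM that the choice required. The choice also required levels within 2-fold between tissues, while their median log2 fold change of culm over sulcus was -1.89. Nothing is read from their absence among the members. The summed level in culm was highest in replicate 3, like that of the members, while the sum in sulcus was lowest there, and its part in the values of the members was not tested.

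The order of the libraries was the basis of the choice, so the member levels are a description without a test. The median member had 10.8, 21.9 and 54.7 CPM in culm replicates 1, 2 and 3, against 12.03, 24.5 and 57.4 CPM in sulcus replicates 1, 2 and 3. The log2 ratio of replicate 3 to replicate 1 had a median of 2.11 (4.31-fold) in culm and 2.02 (4.05-fold) in sulcus. Over all 13883 unigenes at 10 CPM or more, the same median was 0.031 in culm and -0.014 in sulcus. The median over these unigenes thus lay near 0 in both tissues. Across the 13883 unigenes, the log2 ratios of culm and sulcus correlated at Pearson r = 0.898, and across the 150 members at r = 0.850. For the members both ratios were bounded by the choice, which also held the levels of the tissues within 2-fold. Genes are not independent replicates, and the points of 1 tissue share their libraries.

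**Figure D1:**
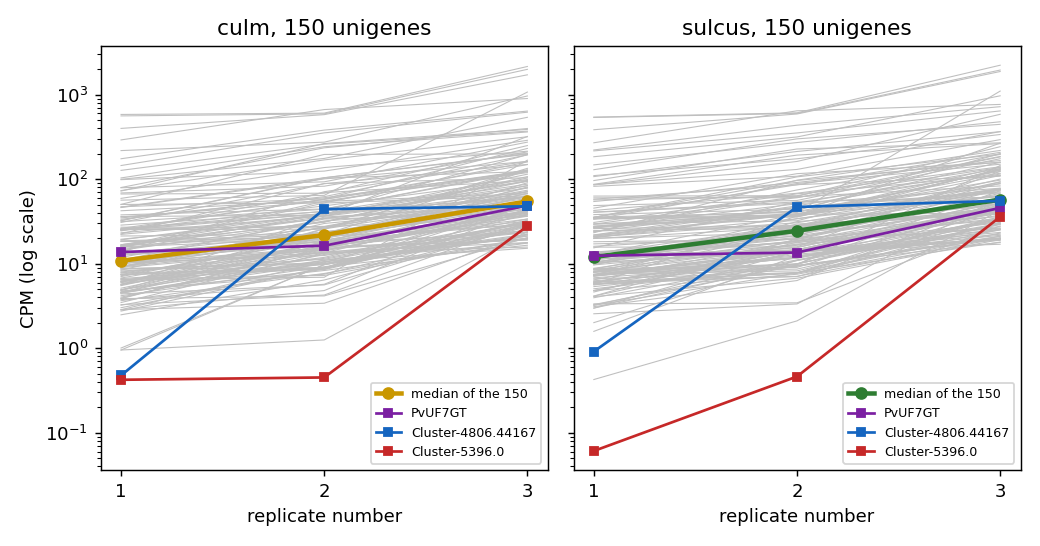
Level of each of the 150 unigenes (grey lines) by replicate number in culm (left) and sulcus (right), in CPM on a log scale, with the median as a thick line. PvUF7GT was at 12.4 and 13.6 CPM in replicates 1 and 2 of sulcus, while Cluster-4806.44167 was far lower in replicate 1 than in its other libraries, and Cluster-5396.0 was the lowest of the 150 in replicates 1 and 2 of both tissues and within their range in replicate 3.

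The scores were spread unevenly. The median score was 1.88 (3.69-fold) and the highest 5.31 (39.6-fold), and 61 members had at least 4-fold, 16 at least 8-fold and 5 at least 16-fold. At the threshold, the last member inside had a score of 1.48, with 10.3, 12.5 and 29.7 CPM in culm replicates 1, 2 and 3 and 10.4, 13.5 and 32.1 CPM in sulcus. The first unigene outside had a score of 1.47, with 7.36, 11.99 and 21.3 CPM in culm and 6.40, 15.1 and 26.6 CPM in sulcus. No gap separated the members from the ranked unigenes behind them.

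**Figure D2:**
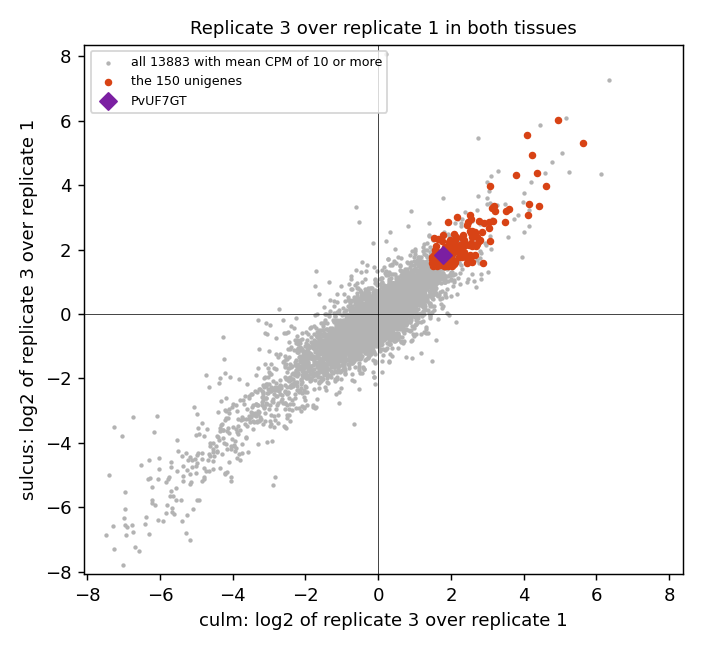
Log2 ratio of replicate 3 to replicate 1 in culm (x axis) and sulcus (y axis) for 13883 unigenes with a mean of 10 CPM or more (grey), the 150 unigenes (orange) and PvUF7GT (diamond, at 1.79 in culm and 1.84 in sulcus). The 150 unigenes lie in the upper right, where both ratios are above 1.47, and grey points beside them failed the middle order, the 2-fold tissue limit or the choice of the highest 150, or are the left-out F5H.

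Cluster-4806.44167 had the highest score. It had 9, 883 and 1077 counts in culm replicates 1, 2 and 3 (0.477, 44.3 and 47.9 CPM) and 15, 913 and 1027 counts in sulcus replicates 1, 2 and 3 (0.914, 46.98 and 55.5 CPM). Replicate 1 stood apart and replicates 2 and 3 were close together, in both tissues. Cluster-5396.0, of the second highest score, had 8, 9 and 628 counts in culm (0.424, 0.451 and 27.9 CPM) and 1, 9 and 666 counts in sulcus (0.061, 0.463 and 36.0 CPM). Here replicates 1 and 2 had at most 9 counts, and nearly all counts of both tissues were in replicate 3. In sulcus the CPM ratio of replicate 3 to replicate 1 was 590 (95% exact counting interval 106 to 23351, which covers counting error only), because replicate 1 held 1 count. It was the only member with 3 counts or fewer in any library, and no member was at 0.

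The next members differed in which library stood apart. The member of rank 3 had 5.67, 26.0 and 127 CPM in culm replicates 1, 2 and 3 and 5.73, 36.8 and 129 CPM in sulcus, with replicate 2 between the others. The member of rank 4 had 56.6, 64.5 and 1076 CPM in culm and 35.7, 40.5 and 1105 CPM in sulcus. As in Cluster-5396.0, replicate 3 was apart from the others in both tissues. The member of rank 5 had 0.954, 1.25 and 24.1 CPM in culm and 0.427, 2.11 and 43.2 CPM in sulcus, also highest by far in replicate 3. The member of rank 6 had 6.41, 6.92 and 168 CPM in culm and 8.72, 9.72 and 145 CPM in sulcus, again with replicate 3 apart.

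PvUF7GT had rank 91. It had 260, 326 and 1097 counts in culm replicates 1, 2 and 3 (13.8, 16.4 and 48.7 CPM) and 204, 264 and 848 counts in sulcus replicates 1, 2 and 3 (12.4, 13.6 and 45.8 CPM). Replicate 3 was more than 2-fold above the other libraries in both tissues, and the ranges of the tissues overlapped. The mean was 26.3 ± 19.5 CPM in culm and 23.9 ± 18.9 CPM in sulcus (SD, n = 3 each). PvUF7GT was higher in culm in 3 of 3 same-numbered pairs, by 0.14, 0.26 and 0.088 on the log2 scale in pairs 1, 2 and 3. The edgeR quasi-likelihood test without the replicate number gave a log2 fold change of culm over sulcus of 0.12 (SE 0.67, adjusted p = 0.99997). The study, which used DESeq2, reported PvUF7GT as more highly expressed in culm and wrote that its qRT-PCR matched. The edgeR test here did not call that difference, but the choice of the members fixes this outcome. It held PvUF7GT within 2-fold between the tissues and took it for a large spread between replicate numbers. The missing call is therefore not set against the study's result. The name rests on the identifier alone and is uncertain: the study's expression table lists a library pattern for this identifier that is not the one its deposited counts hold. All values here are those of the identifier in the deposited counts.

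The step between libraries did not lie at the same place in every member. Of the log2 difference between replicates 1 and 3, the median member had 40.7% between replicates 1 and 2 in culm and 37.1% in sulcus. Between the tissues the position had a median absolute difference of 10.04 percentage points and r = 0.773 over the members, and the choice itself required the same order and levels within 2-fold in both. In 35 members at most 25% of the difference lay between replicates 1 and 2 in both tissues, so that replicate 3 stood apart. PvUF7GT, with 13.4% in culm and 6.67% in sulcus, was 1 of these. In 6 members at least 75% lay there in both tissues, so that replicate 1 stood apart, and Cluster-4806.44167 was 1 of these. Another 60 members lay between these limits in both tissues, and the remaining 49 fell on different sides of a limit in the 2 tissues. The larger step was between replicates 2 and 3 in both tissues for 79 members and between replicates 1 and 2 in both tissues for 43.

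**Figure D3:**
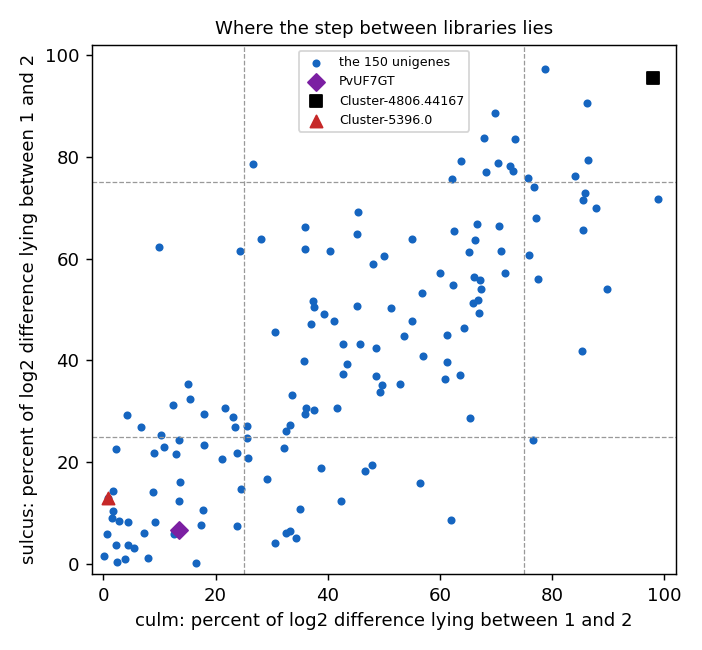
Percent of the log2 difference between replicates 1 and 3 that lies between replicates 1 and 2, in culm (x axis) and in sulcus (y axis), 1 point for each of the 150 unigenes, with dashed lines at 25% and 75%. The 35 unigenes at the lower left had replicate 3 apart and the 6 at the upper right had replicate 1 apart.

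Across all unigenes, the edgeR test between replicate numbers, with tissue in the model, was run on the 31936 unigenes that passed the filter on low counts. Each number held a single culm library and a single sulcus library, so the p-values and SEs rest on how the tissues differ within a number. They do not measure the spread between plants. The test called 1970 unigenes (6.17%) higher in replicate 3 than in replicate 1. A call required an adjusted p under 0.05 together with a log2 fold change above 1. Of the 150 members, 149 passed the filter and all 149 were called, which the choice of the members fixes. Cluster-5396.0 did not pass, since its counts were low in 4 libraries. Between replicates 3 and 2, 1743 unigenes (5.46%) were called higher in replicate 3, and 93 of the members were among them. Between replicates 2 and 1, 705 unigenes (2.21%) were called higher in replicate 2, and 64 of the members were among them. The choice used these values too, so the step counts describe where the difference lay and test nothing. Both steps were called in 18 members, only the step between 2 and 3 in 75, only the step between 1 and 2 in 46, and neither in 10. For PvUF7GT, likewise as a description, the log2 fold change was 1.81 (SE 0.15) for replicate 3 over 1, 1.59 (SE 0.14) for 3 over 2 and 0.22 (SE 0.15) for 2 over 1.

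The members held a small part of each library. They took 0.516%, 0.905% and 2.25% of the counts in culm replicates 1, 2 and 3, against 0.548%, 0.922% and 2.32% in sulcus replicates 1, 2 and 3. The share in replicate 3 was 4.37 times that in replicate 1 in culm and 4.24 times in sulcus. The 5 members with most counts held 33.5% of all member counts. The member with the highest counts, of rank 87, had 562, 593 and 1997 CPM in culm replicates 1, 2 and 3 and 544, 611 and 2235 CPM in sulcus. Of the 150, 25 had a mean of 100 CPM or more and 48 a mean under 20 CPM.

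**Figure D4:**
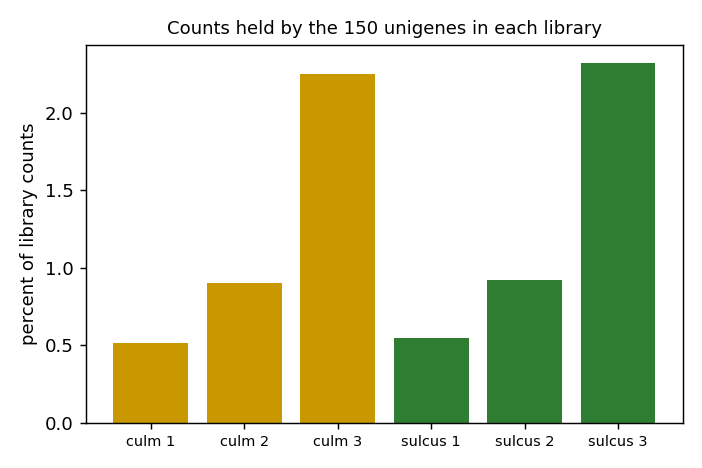
Percent of all counts of each library that fell on the 150 unigenes, as 1 bar per library, for culm (left) and sulcus (right). Replicate 3 was highest in both tissues, at 2.25% in culm and 2.32% in sulcus.

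The size of the difference between culm and sulcus was limited by the choice of the members, but its direction was not. With 0.5 CPM added to every value, the largest ratio between the tissues in a same-numbered pair was 1.96-fold. On that scale 113 members stayed within 1.5-fold in all 3 pairs. Without the addition, members at low levels could differ more: Cluster-5396.0 had 0.424 CPM in culm and 0.061 CPM in sulcus in pair 1. The median log2 ratio of culm to sulcus was -0.17, -0.038 and -0.050 in pairs 1, 2 and 3, against 0.015, -0.0050 and 0.045 over all 13883 unigenes. Lower levels in culm were found in 103, 85 and 86 of the 150 members in pairs 1, 2 and 3 (68.7%, 56.7% and 57.3%), against 47.9%, 51.1% and 39.2% of the 13883 unigenes. In all 3 pairs, 41 members (27.3%) were lower in culm, against 12.9% of the 13883 unigenes, and 15 members (10%) were higher in culm, against 19.4%. PvUF7GT was 1 of those 15. The members were not tested against the other unigenes, and these shares rest on the same 6 libraries as the choice.

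**Figure D5:**
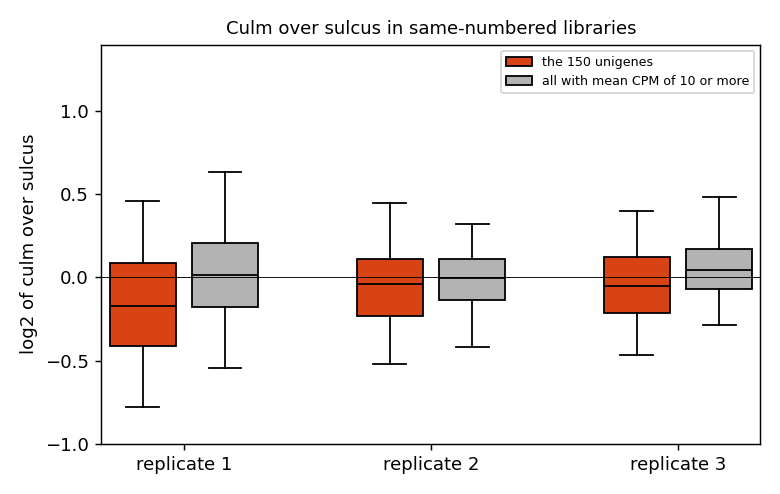
Log2 ratio of culm to sulcus in the 3 same-numbered pairs for the 150 unigenes (orange) and for 13883 unigenes with a mean of 10 CPM or more (grey). Boxes show the median and quartiles, and whiskers the 5th and 95th percentiles. The orange medians are -0.17, -0.038 and -0.050.

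The test between tissues called no member, which the choice fixes: a member held within 2-fold in every pair cannot pass the limit on the fold change, and a member chosen for a large spread between replicates has a large p without the block. By edgeR without the replicate number, 0 of 31936 unigenes (0%) passed in either direction, 440 had an unadjusted p under 0.05 and none of these was a member. DESeq2 called 10 unigenes higher and 18 lower in culm, and limma voom called 0, with no member among them. The median log2 fold change of the members was -0.10, against 0.0059 over all unigenes tested. This median was 0.29 without culm replicate 1, 0.0097 without culm replicate 2 and 0.63 without sulcus replicate 3. It was -0.83, -0.46 and -0.27 without culm replicate 3, sulcus replicate 1 and sulcus replicate 2. Each omission leaves the replicate numbers unequal between tissues, and the members were chosen to differ by number. The shifts without a replicate 1 or 3 library therefore follow from the choice. The omissions do not show how stable the sign is. With the replicate block the median was -0.105 by edgeR. When same-numbered libraries were blocked, 50 unigenes (0.157%) were called by edgeR at an adjusted p under 0.05 with no limit on the fold change. Of the members, 0 were called by edgeR, while 29 of 149 (19.5%) had an unadjusted p under 0.05, 6 higher and 23 lower in culm. Over all unigenes tested, 2498 of 31936 (7.82%) had one, 1653 higher and 845 lower in culm. Since the members were chosen for levels that moved together in same-numbered libraries, nothing is read from this difference in shares. DESeq2 with the block called 2 members higher in culm when no limit was set on the fold change, against 131 unigenes (0.41%) of all tested. For PvUF7GT the block gave a log2 fold change of 0.16 (SE 0.12, edgeR adjusted p = 0.797).

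The wider pathway of PvUF7GT held unigenes called in either direction between replicate numbers. As above, the p-values and SEs of this test do not measure the spread between plants. Of 19 flavonoid and phenylpropanoid unigenes, 18 were tested, 4 were called higher and 2 lower in replicate 3 than in replicate 1 (6.17% and 7.98% of all unigenes tested), and the median log2 fold change was 0.18, against 0.015 over all unigenes tested. Those called higher were PvUF7GT, F5H, HCT and CCR (cinnamoyl-CoA reductase, which acts on the way to lignin monomers). PvUF7GT is a member, and F5H and HCT met the conditions of the choice, so their calls follow from values that it used. Nothing is read from the count called higher against the share of all unigenes. The F5H unigene, a ferulate 5-hydroxylase that leads to syringyl lignin, would have ranked 9 with 139, 379 and 1547 CPM in culm replicates 1, 2 and 3 and 149, 428 and 1595 CPM in sulcus. The HCT unigene, a shikimate hydroxycinnamoyltransferase, would have ranked 160, outside the 150, with 133, 248 and 389 CPM in culm and 156, 252 and 419 CPM in sulcus. The CCR unigene had 3.92, 18.1 and 12.8 CPM in culm replicates 1, 2 and 3 and 7.31, 17.2 and 25.2 CPM in sulcus, so its order differed between the tissues. Those called lower were CCoAOMT, a methyltransferase of lignin monomer synthesis, at -1.39 (SE 0.19, edgeR adjusted p = 0.000873), and C4H, the hydroxylase at the start of the phenylpropanoid pathway, at -3.23 (SE 0.67, edgeR adjusted p = 0.00805). C4H was at 10.2, 1.25 and 0.667 CPM in culm replicates 1, 2 and 3 and at 0.853, 0.823 and 0.324 CPM in sulcus, so the high library was culm replicate 1. Without that library the log2 fold change of C4H was -1.31 (edgeR adjusted p = 0.282) and without culm replicate 3 it was -2.28 (edgeR adjusted p = 0.131), so the call was lost in both cases.

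A list of 25 wound and defence unigenes held no member. Only 3 of the 25 reached the mean of 10 CPM that the choice required, and the members were 150 of 13883 unigenes at that level. Nothing is read from the absence of members. Of the 25, 19 were tested and 14 were called lower in replicate 3 than in replicate 1 by edgeR, against 7.98% of all unigenes tested. Their median log2 fold change was -2.44. Without culm replicate 3 the count was 8 of 22 tested, and it was 11 to 19 when another library was left out. Their summed level was 576, 219 and 82.0 CPM in culm replicates 1, 2 and 3 and 99.5, 119 and 62.4 CPM in sulcus. In culm the sum was highest in replicate 1, where the members were lowest, and in sulcus it was highest in replicate 2. The median of the 25 was 11.1, 3.91 and 1.11 CPM in culm replicates 1, 2 and 3. In sulcus replicates 1, 2 and 3 the median was 1.52, 1.29 and 0.54 CPM, so it fell from replicate 1 to 3 in both tissues. The list was taken from unigenes that the study had chosen on these samples, and its part in the levels of the members was not tested.

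The members shared few features in the table that the choice had not used. The estimated counts were deposited with 2 decimals, and at least 1 count with decimals other than nil occurred in 78 members (52.0%), against 57.8% of the 13883 unigenes. PvUF7GT, Cluster-4806.44167 and Cluster-5396.0 had whole counts. The largest group of linked transcripts in the assembly held 146 members (97.3%), against 98.2% of the 13883 unigenes, and Cluster-5396.0 was outside it. Both shares were slightly below those of the 13883 unigenes.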

How the data were processed

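RNA from the culm and the sulcus (3 libraries each) was sequenced on an Illumina instrument. The authors assembled the reads with Trinity, grouped transcripts into unigenes with Corset and deposited estimated counts, not all whole, per unigene and library. How reads were counted is not stated in the labels or methods used here. Groups and replicate numbers were taken from the sample labels. CPM was the deposited count divided by the library total and multiplied by 1000000, with no correction for length, so levels were not compared between unigenes.

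The members and gene lists were chosen with earlier results of these data known. The members named by identifier were every member that the study names and the 2 with the highest scores.

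Counts were rounded and tested with the edgeR (4.0.16) quasi-likelihood test, after TMM normalization and a filter with a minimum count of 10, and p-values were adjusted by Benjamini-Hochberg over all 31936 unigenes kept. Unigenes were called at an adjusted p under 0.05 when the log2 fold change was also beyond 1. DESeq2 (1.42.0), limma voom (3.58.1), other size factors, filters and constants, and leaving out each library were alternatives. The scripts were tested on simulated data.

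Deviations from the tissue means correlated positively between same-numbered libraries (r = 0.713, 0.620 and 0.798 for numbers 1, 2 and 3). Between others r was negative (-0.632 to -0.075). Deviations cancel within a tissue, so negative values there follow from the positive ones and add no separate support. The numbers were taken to pair the libraries from the positive values and not from the labels. That the samples are separate plants rests on the study's statement of biological replicates.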

Additional observations from a re-analysis of the deposited data

How the results depend on the processing

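The choice of members depended most on the CPM minimum and on single libraries. Of the 150 members, 76 were chosen with a minimum of 30 CPM, 59 with no minimum, 67 to 130 when 1 library was left out (77 without culm replicate 1, 80 without culm replicate 3, 84 without sulcus replicate 1 and 67 without sulcus replicate 3), and 106 to 146 under the other settings. Unigenes meeting the conditions numbered 694 with a minimum of 30 CPM, 3626 with no minimum and 1468 to 2328 without 1 library. The score of the last member was 1.71 with a minimum of 5 CPM, 1.05 with 30 CPM, 2.03 with no minimum, 1.30 with a tissue limit of 1.5-fold and 0.78 to 1.59 without 1 library. The median score was 1.77 with a constant of 2 CPM, and the share ratio was 4.41 without the 20 most abundant unigenes in the denominator.

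With no limit on the fold change, edgeR called 3450 unigenes higher and 4178 lower in replicate 3 than in replicate 1, against 1970 and 2547 with the limit. Between culm and sulcus, DESeq2 called 10 higher and 18 lower and edgeR with no filter called 2 lower. With the replicate block, edgeR called 22 higher and 19 lower in culm and DESeq2 65 and 31, so the block moved the count. With all libraries no member could be called at the fold limit, since the choice holds all of them within 2-fold in same-numbered pairs. Leaving out 1 library breaks a pair, and no member was called in those fits either. The median log2 fold change of the members for culm over sulcus was -0.11 to -0.10 under the settings with all libraries, the replicate block included (-0.105 by edgeR). It ran from -0.83 (without culm replicate 3) to 0.63 (without sulcus replicate 3), and was 0.29 without culm replicate 1 and 0.0097 without culm replicate 2, since each omission leaves the replicate numbers unequal between tissues. With 3 libraries per tissue, 1 library moves these values, and the omissions do not show how stable the sign is.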

Other observations

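The order of the members was 1 of 6 that 3 numbers allow. Of the 13883 unigenes at 10 CPM or more, 6560 (47.3%) had the same order in both tissues and stayed within the 2-fold tissue limit. Replicate 3 highest and replicate 1 lowest held for 1297 of them and the reverse for 1311, while the remaining orders held for 630 to 1316 each. The 150 unigenes with the largest scores in the reverse order had a median score of 3.76 and a highest score of 7.26, against 1.88 and 5.31 for the members. They held 2.58%, 0.414% and 0.154% of the counts in culm replicates 1, 2 and 3 and 2.13%, 0.396% and 0.145% in sulcus. These values describe the libraries, and the sets were not tested against each other.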
